A study of Mus musculus with 9 samples.

Results

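The response of whole mouse lung to interleukin-33 (IL-33) was read from RNA-seq of 3 lungs given IL-33 and 3 given phosphate-buffered saline (PBS), 6 of the 9 samples of the series. A gene entered the comparison where its FPKM, the deposited read count scaled by gene length and sequencing depth, averaged 0.5 or more over the 9 samples and at least 1 read fell on it in the 6 lungs. This kept 16831 of the 34638 genes in the deposited table. The genes are described by the pathway or cell programme they belong to.

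The series tests a MyD88 inhibitor in mice with airway inflammation set off by IL-33; MyD88 is the adaptor through which the IL-33 receptor signals. All mice were wild-type (WT) C57BL/6. IL-33 mice received 0.5 µg of recombinant mouse IL-33 per instillation into the trachea once a day from day 0 to day 3, and PBS mice the vehicle alone. The paper's methods for its IL-33 model describe females of 6 to 8 weeks, a volume of 25 µl and lungs taken on day 4, 24 h after the last instillation; the sample labels do not give these. The 3 lungs that also received the MyD88 inhibitor LM8 set the expression filter with the others and entered no test, except where a library check names them. The IL-33 was given as protein, so reads on the *Il33* gene come from the mouse's own transcript.

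IL-33 is an alarmin, a cytokine kept in the nucleus of barrier and stromal cells and released when they are damaged. It binds ST2, encoded by *Il1rl1*, on group 2 innate lymphoid cells (ILC2), mast cells, T helper 2 cells and regulatory T cells, and the ILC2 then secrete IL-5 and IL-13. IL-5 sustains eosinophils, while IL-13 acts through STAT6 on airway epithelium and macrophages, where mucus genes and the alternative activation programme are its best-known targets.

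Between 61767006 and 73869252 reads were counted on genes in each PBS library, and between 53877663 and 66029783 in each IL-33 library. Genes that define lung tissue were abundant in all 6 libraries. The alveolar type 2 cell gene *Sftpc* lay between 4879 and 11640 FPKM, the club cell gene *Scgb1a1* between 8229 and 22246 FPKM, and the alveolar type 1 cell gene *Ager* between 439 and 894 FPKM. Lower but present everywhere were *Foxj1* of ciliated cells at 29.5 to 46.7 FPKM, *Cldn5* of endothelium at 139.5 to 224 FPKM and *Tcf21* of lung fibroblasts at 25.2 to 46.9 FPKM. All 6 libraries thus held the markers of the labelled tissue.

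The libraries did not differ by group alone. On log2(FPKM + 1), the first principal component held 77.79% of the variance and separated the 3 PBS libraries (-43.6 to -45.9) from the 3 IL-33 libraries (42.7 to 46.6). The second component held 11.85% and set PBS replicate 3 and IL-33 replicate 1, at -26.6 and -22.5, apart from the other 4 libraries, at 9.12 to 14.3. Its genes were named after their values were seen. The strongest that were high in PBS replicate 3 and IL-33 replicate 1 were a gene without a symbol, at 1.89, 11.5 and 681 FPKM in PBS replicates 1, 2 and 3 and 1019, 39.8 and 82.2 FPKM in IL-33 replicates 1, 2 and 3, and then *Cebpb* and *Scand1*. The strongest genes on the other side encode liver products. *Alb*, encoding serum albumin, was at 139, 157 and 0.627 FPKM in PBS replicates 1, 2 and 3, and at 0, 153 and 209 FPKM in IL-33 replicates 1, 2 and 3. Over 22 genes of hepatocyte products, FPKM summed to 466, 490.0 and 4.08 in the PBS libraries and to 3.23, 499 and 734 in the IL-33 libraries. Of these 22 genes, 13 had no read in PBS replicate 3 and 14 had none in IL-33 replicate 1, while every one had reads in each of the other 4. In the LM8 group the sums were 783, 806 and 4.004, so that 1 library of each group held far less of this RNA than the other 2.

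Genes of neurons and pigment cells were also lowest in PBS replicate 3 and IL-33 replicate 1. The 6 neuronal genes, among them *Snap25* of the synaptic release machinery, summed to 23.9, 25.05 and 0.541 FPKM in the PBS libraries and to 0.552, 27.3 and 4.42 FPKM in the IL-33 libraries. The 4 pigment cell genes summed to 4.38, 13.7 and 0.235 and to 0.675, 14.3 and 12.7 FPKM. IL-33 replicate 3 was low in neuronal genes alone, as were LM8 replicates 1 and 2, at 3.58 and 4.03 FPKM, so the neuronal genes did not follow the liver products throughout. What sets these libraries apart was not tested. Since 1 library of each group stood apart, the comparison was repeated on the other 4 libraries, a choice made after seeing the data. It then called 2845 genes in place of 2865. Of the 2865, 2604 were called again in the same direction, and all 2865 kept their sign.

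**Figure D1:**
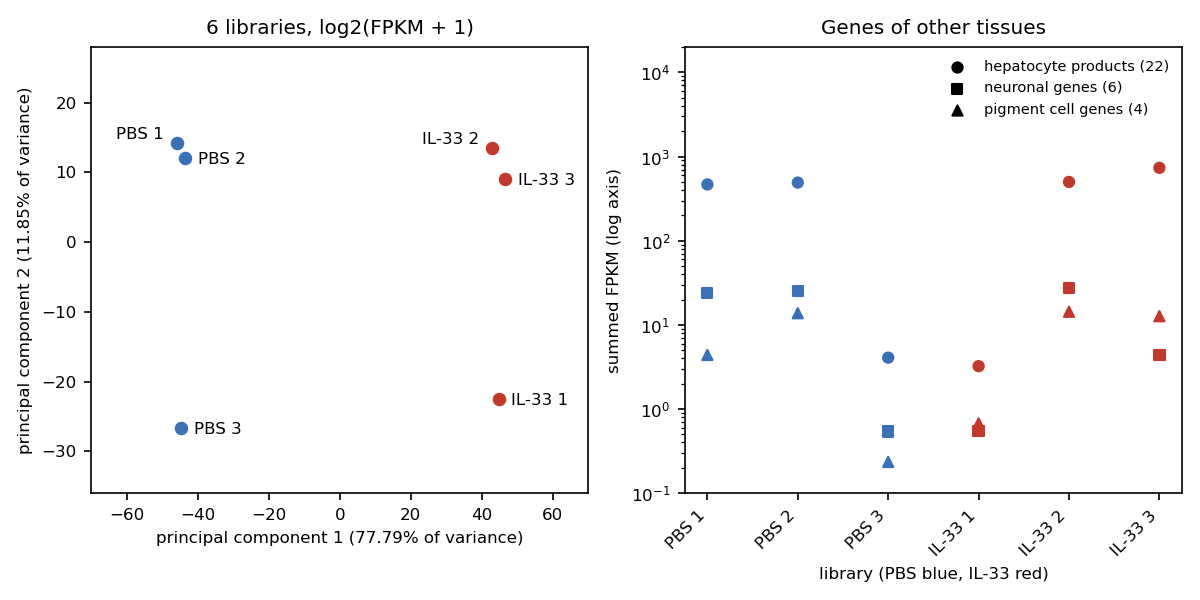
Left, the 6 libraries on principal components 1 and 2 of log2(FPKM + 1) over 16831 genes, 1 point per mouse. Right, the summed FPKM of 22 hepatocyte, 6 neuronal and 4 pigment cell genes in each library on a log axis, with PBS in blue and IL-33 in red; PBS 3 and IL-33 1 hold the least of each.

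Deposited counts of the 6 lungs were compared by edgeR's quasi-likelihood test. Genes were called where the adjusted p of Benjamini and Hochberg fell below 0.05 and the change was 1 log2 unit or more in either direction. Of the 16831 genes, 2865 (17.0%) were called, 1815 (10.8%) higher and 1050 (6.24%) lower in IL-33 lungs. Without a minimum fold change, 4616 genes (27.4%) were higher and 4577 (27.2%) lower, and the FPKM of the groups did not overlap for 10676 genes (63.4%). Among called genes, 1802 of the 1815 higher and 1047 of the 1050 lower did not overlap. Separate groups, where given below, thus add little to a call. The size of the changes was uneven. Of the genes called higher, 793 had a log2 fold change of at least 2 and 69 of at least 5, whereas 95 of those called lower were at -2 or below and 1 was at -5 or below. With limma on log2(FPKM + 1), 1741 genes were called, 1281 higher and 460 lower. The median log2 fold change over all genes tested was -0.01, and every list is read against that value and the shares above. Genes that averaged under 0.5 FPKM in PBS lungs passed the filter only through the other groups. Among them were *Il13*, *Il5*, *Il13ra2*, *Foxp3*, *Muc5ac*, *Ly6g* and *Prg2*. Such genes could enter a list only by being higher outside PBS, so counts and medians of lists that hold them lean towards rises. The smallest p that an exact two-sided permutation test allows 1 gene with 3 mice in each group is 0.1.

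**Figure D2:**
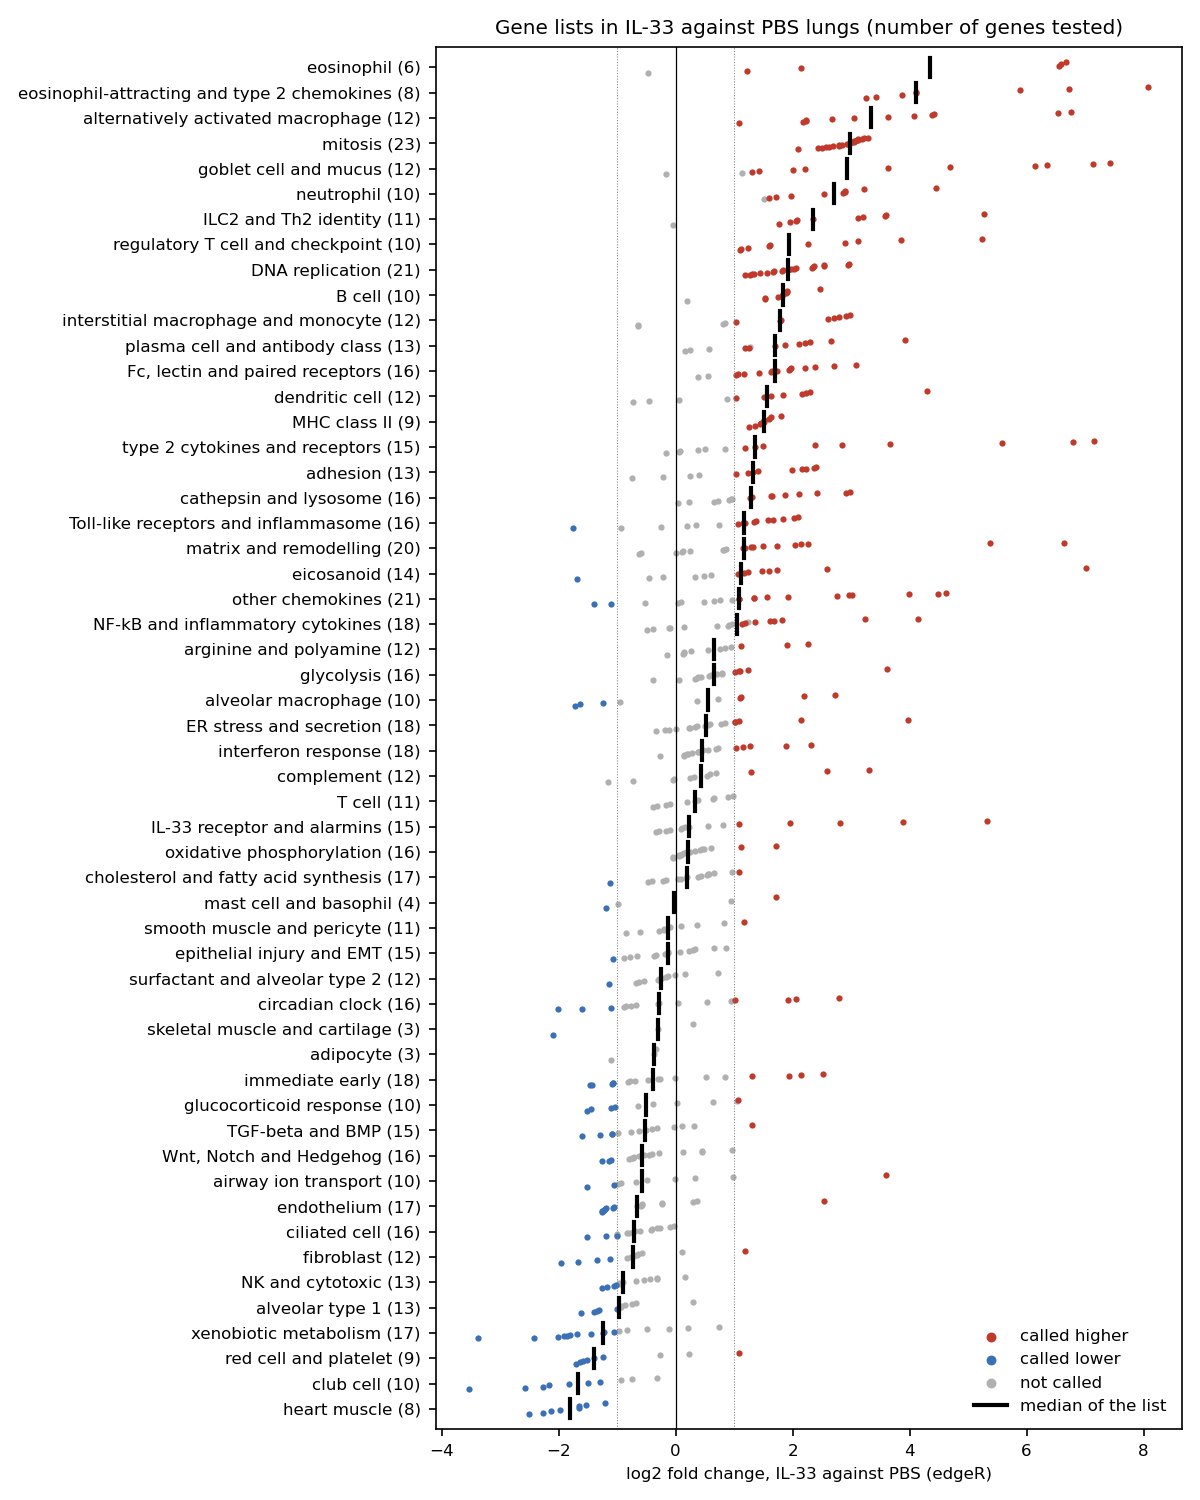
Log2 fold change of each gene tested, IL-33 against PBS, for the gene lists with at least 3 genes tested, sorted by their median (black bar). Red points were called higher, blue lower and grey were not called; *Il13ra2* and *Stfa2l1*, at 0 counts in every PBS lung, are drawn at their lower bound, and the dotted lines mark -1 and 1. The eosinophil list has the highest median, at 4.35, and heart muscle the lowest, at -1.81. Genes low in PBS lungs are drawn only where they passed the expression filter through the other lungs.

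The 10 largest rises were ranked among called genes with separate groups, a mean of 5 FPKM or more in the IL-33 lungs and more than 3 counts in at least 1 PBS lung, with the gene families listed under the processing passed over. *Chil4*, encoding a chitinase-like protein, was at 1.89, 1.89 and 0.327 FPKM in PBS lungs and 529.6, 579 and 448 FPKM in IL-33 lungs, with a log2 fold change of 8.57 (standard error 0.64). *Rnase2a*, encoding an eosinophil-associated ribonuclease, went from 2.57, 2.04 and 0.406 to 435, 507 and 434 FPKM. *Tm4sf19*, encoding a tetraspanin-like membrane protein, went from 0.134, 0 and 0 to 11.8, 11.5 and 12.8 FPKM. Separate groups were a condition of entry to this ranking and add nothing to it. *Cebpe*, a transcription factor of granulocyte maturation, was at 0.0983, 0 and 0 FPKM in PBS and 6.98, 6.66 and 6.64 FPKM in IL-33 lungs, and the epithelial gene *Sprr2a1* at 0.0247, 0.0392 and 0.0466 FPKM in PBS and 5.67, 6.47 and 6.75 FPKM in IL-33 lungs. *Mucl1*, encoding a small mucin-like protein, was at 0.0729, 0 and 0.06500 FPKM in PBS and 6.01, 7.400 and 9.29 FPKM in IL-33 lungs. *Ccl24*, *Itln1*, *Slc26a4* and *Alox15* complete the 10 and stand with their programmes below. *Tm4sf19* and *Cebpe* had reads in PBS replicate 1 alone of the PBS lungs. Several of these genes have close paralogs, and how shared reads were assigned is not stated.

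The 10 largest falls were smaller in fold than the 10 largest rises. *Cst8*, a member of the cystatin family, fell from 8.34, 5.85 and 7.86 FPKM in PBS lungs to 0.0121, 0.314 and 0.246 FPKM in IL-33 lungs. *Pon1*, encoding the lipid-protecting esterase paraoxonase, fell from 19.4, 22.8 and 20.7 to 1.22, 1.56 and 1.904 FPKM, a log2 fold change of -3.75 (standard error 0.17). *Wnt10b*, encoding a Wnt ligand, fell from 6.56, 6.15 and 6.41 to 0.633, 0.898 and 0.656 FPKM. As for the rises, separate groups were a condition of entry. *Esm1*, encoding endocan of endothelial tip cells, fell from 6.36, 6.31 and 6.29 to 0.765, 1.15 and 0.886 FPKM. The glutamate receptor gene *Gria1* (7.81, 7.06 and 6.44 against 0.544, 1.97 and 0.437 FPKM) and *Bex2* (18.2, 17.9 and 16.6 against 1.44, 4.27 and 1.71 FPKM) fell too, with IL-33 replicate 2 the highest of its group in both; their log2 fold changes of -2.85 and -2.82 were -3.84 and -3.46 without it. *Scgb3a2*, *Gdpd2* and *Sult1d1* were also among the 10, at log2 fold changes of -3.52, -3.23 and -2.89.

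Transcripts of the IL-33 receptor and of the cytokine itself rose. Of 15 genes tested on the IL-33 receptor and alarmin list, 5 were called higher, and the median log2 fold change was 0.22. *Il1rl1*, encoding ST2, was at 0.936, 0.988 and 0.973 FPKM in PBS lungs and 14.5, 12.3 and 16.4 FPKM in IL-33 lungs, with a log2 fold change of 3.89 (standard error 0.11). *Il33* was at 29.9, 35.1 and 29.7 FPKM in PBS and 229.8, 202 and 232 FPKM in IL-33 lungs, log2 2.81 (standard error 0.09). *Il17rb*, the receptor for the related alarmin IL-25, had the largest rise of the list, from 0.625, 0.441 and 0.644 to 23.5, 21.4 and 24.8 FPKM. IL-33 lungs were above PBS lungs throughout for these 3 genes. The other genes called were *Crlf2*, the receptor chain for thymic stromal lymphopoietin, and *Irak3*, an inhibitor of the receptor's signal; they stood at 1.95 and 1.09, the first was not called without PBS replicate 2 (1.78, adjusted p 0.0511) and the second not without IL-33 replicate 3 (0.99). *Myd88* was 0.55 higher on the log2 scale, past the adjusted p and short of the minimum fold, and *Tslp*, the alarmin gene of epithelium, did not pass either rule (1.28, 2.01 and 1.44 FPKM against 1.11, 0.815 and 1.82 FPKM).

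On the list of type 2 cytokines and receptors, 9 of 15 genes tested were called higher, with a median log2 fold change of 1.36. *Il13* was counted 0, 4 and 0 times in PBS lungs and 185, 181 and 204 times in IL-33 lungs, and *Il5* 4, 18 and 4 times against 428, 387 and 353 times. Without PBS replicate 2, the log2 fold change of *Il5* was 6.74 in place of 5.58. *Il13ra2*, the decoy receptor for IL-13, had no read in any PBS lung and 305, 313 and 293 in IL-33 lungs, at least 111-fold higher with 3 counts per PBS lung as the floor. *Areg*, encoding the epidermal growth factor relative amphiregulin, rose from 1.63, 1.43 and 1.95 to 4.67, 3.18 and 6.34 FPKM. By contrast *Il4* was counted 73, 52 and 53 times against 64, 87 and 77 times and was not called. Beyond *Il13ra2*, the genes called included *Il2rg*, *Csf2rb* and *Socs1*, while the receptor chains *Il4ra* and *Il13ra1* and the transcription factor *Stat6* were not called.

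Of 11 genes tested that mark ILC2 and T helper 2 cells, 10 were called higher, with a median log2 fold change of 2.34. *Gata3*, the transcription factor that defines both cell types, was at 2.01, 1.93 and 2.42 FPKM in PBS lungs and 8.81, 8.02 and 9.89 FPKM in IL-33 lungs. The chemokine receptor gene *Ccr8* had the largest rise, from 0.691, 0.594 and 0.198 to 20.03, 16.4 and 21.01 FPKM, log2 5.27 (standard error 0.42). Neither gene overlapped between the groups. *Rora*, a nuclear receptor needed for ILC2 development and also expressed in other lung cells, was the member not called. In bulk tissue, more cells of a type and more RNA per cell cannot be told apart, nor can fewer cells and less RNA per cell.

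All 8 genes tested of the eosinophil-attracting and type 2 chemokines were called higher, each with a log2 fold change above 3 and a median of 4.11. *Ccl24*, encoding eotaxin-2, was at 0.732, 0.875 and 0.361 FPKM in PBS lungs and 166, 189.6 and 172 FPKM in IL-33 lungs, with a log2 fold change of 8.08 (standard error 0.26) and an adjusted p of 1.3e-06 from edgeR's quasi-likelihood test and Benjamini-Hochberg adjustment. *Ccl11*, encoding eotaxin-1, was at 1.46, 1.83 and 1.77 FPKM in PBS and 100.4, 99.2 and 103 FPKM in IL-33 lungs, and *Ccl17*, a ligand of CCR4 made by dendritic cells and macrophages, at 7.02, 10.6 and 5.45 FPKM in PBS and 121, 145 and 133 FPKM in IL-33 lungs. The lowest IL-33 lung exceeded the highest PBS lung for all 8 genes. Other chemokines were mixed, with 12 of 21 called higher, 2 lower and a median of 1.09. The second lower call, of *Cx3cl1*, was lost without IL-33 replicate 1, at -0.99. *Ccl9* had the largest rise of these, from 3.503, 5.24 and 3.86 to 104, 104 and 105 FPKM, and *Cxcl13*, which draws B cells, went from 2.07, 1.82 and 1.92 to 32.4, 36.4 and 23.7 FPKM. *Cxcl14*, expressed by resting epithelium, had the largest fall, from 33.6, 37.6 and 56.9 to 21.6, 11.5 and 15.7 FPKM. *Cxcl1*, a neutrophil attractant, was at 0.965, 1.06 and 0.417 FPKM in PBS and 0.989, 1.22 and 2.56 FPKM in IL-33 lungs and was not called.

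Among adhesion genes, 9 of 13 were called higher, with a median of 1.32. *Selp*, encoding P-selectin of activated endothelium and platelets, rose from 0.964, 0.923 and 0.919 to 5.24, 4.75 and 4.99 FPKM. *Vcam1*, the endothelial ligand of α4 integrins, was at 11.4, 10.7 and 11.3 FPKM in PBS and 14.8, 14.8 and 14.4 FPKM in IL-33 lungs, 0.39 higher on the log2 scale and short of the minimum. The leukocyte integrin chains *Itgb2*, *Itgam*, *Itgb7* and *Itga4* were among the genes called, between 1.32 and 2.37 on the log2 scale.

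Of 6 eosinophil genes tested, 5 were called higher, with a median log2 fold change of 4.35, and *Epx* and *Prg3* were below the expression filter. *Prg2* and *Il5ra*, at means of 0.176 and 0.405 FPKM in PBS lungs, passed that filter only through the other groups. *Prg2*, encoding the major basic protein of the granules, was counted 9, 8 and 16 times in PBS lungs and 1024, 1008 and 1010 times in IL-33 lungs. *Siglecf*, also on alveolar macrophages, was at 3.44, 3.28 and 3.496 FPKM in PBS and 8.05, 7.08 and 8.74 FPKM in IL-33 lungs, and *Il5ra*, encoding the IL-5 receptor, at 0.177, 0.401 and 0.637 FPKM in PBS and 2.04, 1.897 and 1.499 FPKM in IL-33 lungs. IL-33 lungs were above PBS lungs for each of these 3 genes. *Ear1* went the other way by less than the minimum fold, at 18.4, 22.4 and 17.5 FPKM in PBS and 14.1, 14.96 and 12.8 FPKM in IL-33 lungs.

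Of 10 neutrophil genes tested, 9 were called higher, with a median of 2.70. *Cxcr2*, the receptor for neutrophil-attracting chemokines, was at 1.33, 0.794 and 1.39 FPKM in PBS and 8.86, 9.83 and 6.91 FPKM in IL-33 lungs. *Ly6g*, the defining surface marker, was counted 9, 7 and 0 times against 48, 27 and 39 times, a log2 fold change of 2.89 that was 3.52 without PBS replicate 1 and 2.28 without PBS replicate 3. Its call was lost without IL-33 replicate 3 (2.80, adjusted p 0.0548) and with limma on log2(FPKM + 1) (0.59). *Stfa2l1* had no read in PBS lungs and 24, 37 and 0 reads in IL-33 lungs, so that its call rested on IL-33 replicates 1 and 2. That call was lost when any lung other than IL-33 replicate 3 was left out, and its lower bound was 7.46-fold. Mast cell and basophil genes were mostly too low to test, with 8 of 12 below the filter. Of the 4 tested, *Hdc*, encoding the enzyme that makes histamine, was called higher (9.23, 8.297 and 8.800 FPKM against 28.9, 26.00 and 32.2 FPKM) and *Gata2*, which endothelium also expresses, lower (38.6, 39.1 and 43.97 against 18.2, 16.4 and 18.8 FPKM). *Cpa3*, the mast cell carboxypeptidase, was at 1.05, 0.967 and 0.979 FPKM in PBS and 2.09, 1.39 and 2.31 FPKM in IL-33 lungs; it was not called, and was called without IL-33 replicate 2, at 1.15. *Cma1*, a mast cell chymase, was not called either, at -0.99, and was called without PBS replicate 2 (-1.07) or IL-33 replicate 3 (-1.16).

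Every gene on the list of alternatively activated macrophages was called higher, 12 of 12, with a median log2 fold change of 3.34. *Chil3*, the chitinase-like Ym1, was already abundant in PBS lungs, at 193, 224 and 193 FPKM, and reached 4354, 4648 and 4059 FPKM. *Mrc1*, the mannose receptor, went from 8.92, 8.52 and 7.896 to 40.1, 36.2 and 39.1 FPKM. No IL-33 lung reached down to the PBS range for any of the 12 genes. The smallest change was that of the scavenger receptor gene *Cd163*, at 1.08, which limma on log2(FPKM + 1) did not call, at 0.78.

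Genes of resident alveolar macrophages went both ways, 4 of 10 higher and 3 lower, around a median of 0.55. *Marco*, a scavenger receptor, fell from 6.72, 8.99 and 6.52 to 1.91, 2.86 and 2.42 FPKM, and *Cidec*, a lipid droplet protein, had the largest fall, from 5.56, 12.4 and 7.94 to 2.82, 2.08 and 2.93 FPKM. *Ear2* had the largest rise, from 81.6, 88.4 and 79.7 to 537, 589 and 532 FPKM. The related *Ear1* stands on the eosinophil list and was lower, and how reads shared by such genes were assigned is not stated. *Pparg*, the transcription factor that alveolar macrophages depend on, rose from 3.02, 3.67 and 3.28 to 7.56, 5.95 and 7.801 FPKM and was under the minimum fold with limma on log2(FPKM + 1), at 0.90. *Fabp1* of the list followed the liver products, with 12.3, 16.9 and 4.26 FPKM in PBS lungs and 0, 7.22 and 10.2 FPKM in IL-33 lungs, and was not called. For *Fabp4*, at 2.62, 8.61 and 5.38 FPKM in PBS and 12.2, 10.8 and 13.02 FPKM in IL-33 lungs, the call was lost when any lung other than PBS replicate 2 was left out, with log2 fold changes of 0.78 to 1.199 against 1.12. Within each group, *Cidec* and *Fabp4* ranked the lungs in the same order as the adipocyte gene *Adipoq*, at 1.59, 9.11 and 5.12 FPKM in PBS and 2.77, 1.47 and 3.07 FPKM in IL-33 lungs, and the part of adipocytes in these results was not tested.

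Interstitial macrophage and monocyte genes were called higher in 8 of 12 cases, with a median of 1.79. *C1qa* and *C1qb*, chains of complement C1q made by tissue macrophages, went from 24.6, 29.5 and 24.4 to 163, 166 and 151 FPKM and from 23.8, 25.1 and 21.05 to 185, 194 and 178 FPKM. *Ccr2*, the receptor that recruits monocytes, went from 4.11, 4.64 and 3.49 to 26.2, 25.7 and 28.3 FPKM. All of these were separate between the groups. The members not called were *Ly6c2* and *Cd14*, higher by 0.85 and 0.82, and *Cx3cr1* and *Lyve1*, both at -0.64 on the log2 scale, all short of the minimum fold.

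Of 12 dendritic cell genes, 8 were called higher, with a median of 1.57; limma on log2(FPKM + 1) called 5. *Ccr7*, which guides mature dendritic cells to lymph nodes, was at 8.32, 10.01 and 9.096 FPKM in PBS and 32.3, 29.4 and 36.6 FPKM in IL-33 lungs. *Batf3*, a transcription factor of the lineage, had the largest rise, from 0.5702, 0.545 and 0.501 to 10.9, 10.8 and 11.1 FPKM. *Cd209a* of monocyte-derived dendritic cells was at 7.79, 8.49 and 8.63 FPKM in PBS and 9.998, 6.09 and 9.85 FPKM in IL-33 lungs, with overlapping groups and a log2 fold change of 0.06 that turned to -0.0415 with IL-33 replicate 1 left out and -0.0399 with IL-33 replicate 3 left out. All 9 MHC class II genes were called higher within a narrow range of 1.25 to 1.81, with a median of 1.51. *Ciita*, the master regulator of these genes, rose from 4.12, 4.23 and 4.18 to 9.84, 10.3 and 9.75 FPKM, and *Cd74*, the invariant chain, from 558, 520.0 and 503 to 1418, 1420.4 and 1493 FPKM.

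Of 16 Fc, lectin and paired receptor genes, 14 were called higher, with a median of 1.70, led by the inhibitory Fc receptor *Fcgr2b*, from 5.36, 5.13 and 4.66 to 43.9, 42.5 and 42.8 FPKM. The shared signalling adaptor *Tyrobp* went from 34.2, 36.5 and 33.6 to 87.9, 98.2 and 95.9 FPKM. Of 16 cathepsin and lysosome genes, 9 were called higher and another 6 were higher by less than the minimum fold, with a median of 1.29. The protease genes *Ctss* and *Ctsk* went from 86.3, 103 and 83.7 to 722, 717 and 709.8 FPKM and from 8.54, 11.4 and 10.04 to 76.9, 76.1 and 72.3 FPKM. Every one of these 4 genes was separate between the groups. Among Toll-like receptor and inflammasome genes, 10 of 16 were called higher and 1 lower, around a median of 1.17. *Tlr1* had the largest rise, from 1.52, 1.82 and 1.84 to 8.08, 7.38 and 6.72 FPKM, *Tlr5* was called lower without PBS replicate 2 (-1.03), and *Tlr2* and *Tlr4* were not called, at 0.20 and 0.74. The gene called lower was *Il18*, encoding a cytokine of the IL-1 family, which fell from 5.64, 6.73 and 6.28 to 1.91, 2.31 and 1.23 FPKM.

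Lymphocyte lists differed in their counts. Of 11 T cell genes tested, edgeR called 0. Of these, 5 had an adjusted p under 0.05 without a minimum fold and the same 5 an unadjusted p under 0.05, all higher, and the median was 0.33. DESeq2 and limma also called 0. *Cd3g*, a chain of the T cell receptor complex, stood at 0.99 and was called without IL-33 replicate 2 (1.05), PBS replicate 2 (1.02) or PBS replicate 3 (1.07). *Cd3e* of the T cell receptor complex was at 1.33, 1.28 and 1.36 FPKM in PBS lungs and 1.69, 1.76 and 1.74 FPKM in IL-33 lungs, and *Cd8a* at 2.31, 2.41 and 2.65 FPKM in PBS and 2.55, 1.96 and 2.41 FPKM in IL-33 lungs. All 10 genes tested of the regulatory T cell and checkpoint list were called higher, with a median of 1.94. *Pdcd1*, encoding the inhibitory receptor PD-1, went from 0.376, 0.705 and 0.236 to 16.6, 15.9 and 17.4 FPKM, log2 5.24 (standard error 0.37). *Ctla4* went from 0.601, 0.599 and 0.579 to 8.34, 7.66 and 10.00 FPKM and *Foxp3*, the transcription factor of regulatory T cells, from 0.226, 0.333 and 0.2404 to 1.99, 2.07 and 1.898 FPKM. *Cd274* was not called without IL-33 replicate 3 (0.99), and limma on log2(FPKM + 1) called neither it (0.96) nor *Ikzf2* (0.52). PD-1 and CTLA-4 are also found on ILC2 and activated T cells.

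Of 13 tested on the NK and cytotoxic list, 4 were called lower and another 4 were lower by less than the minimum fold, with a median log2 fold change of -0.90. *Ncr1*, the defining receptor of natural killer cells, fell from 3.21, 5.02 and 3.71 to 1.85, 1.701 and 1.704 FPKM, and *Gzma*, encoding granzyme A, from 21.3, 33.2 and 24.8 to 10.4, 12.1 and 10.7 FPKM. All 4 calls were close to the minimum fold. Without PBS replicate 2, *Gzma* alone was called, at -1.06, and *Ncr1* stood at -0.97. Without PBS replicate 1 the calls were 6, with *Gzmb* (-1.05) and *Prf1* (-1.17) added. *Gzmb* (-1.07) and *Klre1* (-1.06) were also called without IL-33 replicate 1, where *Klra8* was not (-0.94), and *Prf1* (-1.10) without IL-33 replicate 3, where *Klrb1c* was not (-0.99). Without IL-33 replicate 2, *Klrb1c* was at -0.94 and not called. Limma called *Gzma* alone on log2(FPKM + 1) and 2 genes on log2(FPKM + 0.1).

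B cell genes were higher in 9 of 10 cases, with a median of 1.83. *Ms4a1*, encoding CD20, went from 1.81, 2.82 and 2.25 to 13.5, 14.7 and 9.97 FPKM. *Ebf1*, the factor of early B cells that stromal cells also express, was the gene not called. On the plasma cell and antibody class list, 9 of 13 were called higher, with a median of 1.71. The heavy chain of IgM, *Ighm*, had the largest change, from 37.1, 54.2 and 41.2 to 667, 646 and 693 FPKM, log2 3.92 (standard error 0.15). *Jchain*, which joins secreted IgM and IgA, went from 19.98, 16.9 and 17.9 to 58.7, 61.9 and 58.7 FPKM. *Ighg1* was low in both groups, at 0.311, 0.176 and 0.3604 FPKM in PBS and 0.954, 1.28 and 0.882 FPKM in IL-33 lungs, and was under the minimum fold with limma on log2(FPKM + 1), at 0.67. *Ighe*, encoding the heavy chain of IgE, was below the expression filter, with 0, 0 and 4 reads in PBS lungs and 2, 8 and 4 in IL-33 lungs.

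Proliferation genes rose as a whole. All 21 DNA replication genes and all 23 mitosis genes were called higher, with medians of 1.93 and 2.97. *Mki67*, the proliferation marker Ki-67, was at 4.58, 2.500 and 3.52 FPKM in PBS lungs and 32.6, 28.6 and 30.9 FPKM in IL-33 lungs, log2 3.11 (standard error 0.21). *Cdk1*, the kinase that starts mitosis, went from 1.28, 0.796 and 0.681 to 7.57, 6.64 and 7.89 FPKM and *Ccnb2*, a cyclin that activates it, from 2.39, 1.62 and 2.28 to 19.8, 17.7 and 23.98 FPKM. Mitosis genes all lay between 2.098 and 3.28 on the log2 scale. In the replication list, *Mcm5* of the DNA helicase went from 4.702, 4.39 and 3.73 to 20.7, 20.6 and 24.6 FPKM, and *Rrm2*, which makes deoxynucleotides, from 2.54, 2.29 and 2.53 to 19.01, 17.9 and 20.5 FPKM. No gene of either list overlapped between the groups, and *Pola1* was not called with limma on log2(FPKM + 1), at 0.92.

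The promoters of these genes were read for short motifs, in windows from 250 bases before to 50 after each gene's start in a RefSeq table on GRCm38.p6, on both strands. Of the 16808 gene symbols tested, 11534 have such a window. The cell cycle homology region TTTGAA was present in 73.7% of the 19 mitosis genes with a window and in 14.8% of all 11534. An E2F motif, TTTGGCGC or TTTCGCGC, was present in 31.2% of the 16 DNA replication genes with a window and in 1.67% of all. A match is a description of letters and not a site. The shares count all tested members of a list, called or not, so they describe the lists and not the response to IL-33. For each of the 2 lists the window of the called member with the largest change that holds the motif is shown, the mitotic cyclin gene *Ccnb2* (chr9:70421505-70421804, minus strand) and *Cdt1* (chr8:122567765-122568064, plus strand), whose product loads the helicase. Capitals mark the motif on either strand.
*Ccnb2*: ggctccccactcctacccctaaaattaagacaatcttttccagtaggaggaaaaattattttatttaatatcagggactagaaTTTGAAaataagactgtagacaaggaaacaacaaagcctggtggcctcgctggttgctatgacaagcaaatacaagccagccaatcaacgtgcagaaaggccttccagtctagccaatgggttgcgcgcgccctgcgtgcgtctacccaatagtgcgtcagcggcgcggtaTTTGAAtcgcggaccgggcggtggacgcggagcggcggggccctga
*Cdt1*: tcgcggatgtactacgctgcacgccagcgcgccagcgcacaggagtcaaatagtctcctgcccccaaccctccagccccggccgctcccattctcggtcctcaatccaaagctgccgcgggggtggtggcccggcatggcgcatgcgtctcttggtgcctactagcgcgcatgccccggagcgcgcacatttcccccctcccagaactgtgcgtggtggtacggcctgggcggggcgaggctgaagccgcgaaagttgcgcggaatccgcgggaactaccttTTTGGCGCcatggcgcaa

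The other motifs were read in the same windows, again over all tested members whatever their calls. The STAT6 spacing, TTC and GAA with any 4 bases between them, was present in 1 of 4 eosinophil-attracting chemokine genes with a window, 2 of 10 alternatively activated macrophage genes and 0 of 8 goblet cell genes, against 6.598% of all genes. The ER stress element, CCAAT and CCACG with any 9 bases between them, was present in 6 of 16 ER stress genes, against 0.182%. The interferon element core, TTTC repeated with any 2 bases between, was present in 8 of 12 interferon response genes, against 3.99%, and the sterol element, TCAC and CCAC with any base between, in 1 of 10 cholesterol genes, against 1.396%. By the same rule, *Ccl17* (chr8:94810203-94810502, plus strand) and *Pdcd1lg2* (chr19:29410669-29410968, plus strand), the PD-1 ligand of macrophages and dendritic cells, are shown for the STAT6 spacing, *Creld2* (chr15:88819396-88819695, plus strand), encoding a protein of the endoplasmic reticulum, for the ER stress element and *Oas1a* (chr5:120907476-120907775, minus strand), an antiviral synthetase, for the interferon core, again in capitals. *Pdcd1lg2* was at 6.54 on the log2 scale, *Oas1a* at 1.88 and *Creld2* at 1.01; *Creld2* was not called without IL-33 replicate 2 (0.98), PBS replicate 2 (0.97) or PBS replicate 3 (0.97).
*Ccl17*: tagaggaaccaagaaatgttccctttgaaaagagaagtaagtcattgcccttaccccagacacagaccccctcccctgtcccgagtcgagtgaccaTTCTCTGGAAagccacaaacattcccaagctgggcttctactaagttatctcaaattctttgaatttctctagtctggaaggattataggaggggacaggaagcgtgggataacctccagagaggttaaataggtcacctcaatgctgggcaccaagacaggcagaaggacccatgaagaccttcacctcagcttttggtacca
*Pdcd1lg2*: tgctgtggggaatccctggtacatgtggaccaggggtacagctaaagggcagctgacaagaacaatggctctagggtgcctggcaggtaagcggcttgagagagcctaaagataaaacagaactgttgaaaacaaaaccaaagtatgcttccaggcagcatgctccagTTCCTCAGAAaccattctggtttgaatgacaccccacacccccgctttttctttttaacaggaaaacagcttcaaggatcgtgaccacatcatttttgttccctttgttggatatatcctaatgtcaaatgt
*Creld2*: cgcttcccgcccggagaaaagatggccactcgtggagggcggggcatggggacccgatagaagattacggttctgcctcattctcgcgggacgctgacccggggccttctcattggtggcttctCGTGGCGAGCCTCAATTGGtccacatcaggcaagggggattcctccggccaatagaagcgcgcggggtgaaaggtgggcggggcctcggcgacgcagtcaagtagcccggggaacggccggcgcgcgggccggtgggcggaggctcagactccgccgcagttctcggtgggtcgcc
*Oas1a*: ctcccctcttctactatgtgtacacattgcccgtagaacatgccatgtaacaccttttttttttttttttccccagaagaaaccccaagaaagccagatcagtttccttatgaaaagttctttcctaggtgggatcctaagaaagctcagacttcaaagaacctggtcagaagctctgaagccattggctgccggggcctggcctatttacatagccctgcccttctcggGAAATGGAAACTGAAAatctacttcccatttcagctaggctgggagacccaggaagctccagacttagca

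Of 12 goblet cell and mucus genes tested, 10 were called higher, with a median log2 fold change of 2.93. The mucin gene *Muc5ac* was at 0.184, 0.229 and 0.116 FPKM in PBS lungs and 11.8, 11.5 and 14.2 FPKM in IL-33 lungs, log2 6.15 (standard error 0.24). *Clca1*, a secreted regulator of mucus, went from 1.36, 9.395 and 4.36 to 415, 387 and 428 FPKM, and *Slc26a4*, encoding the anion exchanger pendrin, from 0.521, 0.541 and 0.716 to 89.4, 72.6 and 90.8 FPKM. These 3 genes were separate between the groups, and the PBS lungs spread widely for *Clca1*, whose log2 fold change of 6.35 was 7.16 without PBS replicate 2. *Itln1*, encoding the lectin intelectin-1, was counted 0, 10 and 0 times in PBS lungs and 624, 639 and 398 times in IL-33 lungs. *Muc5b*, the mucin that healthy airways also secrete, rose less, from 4.502, 5.69 and 5.03 to 19.6, 20.8 and 20.6 FPKM.

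Of 10 club cell genes, 7 were called lower and another 2 were lower by less than the minimum fold, with a median of -1.66. *Scgb3a2*, a secretoglobin, fell from 215, 226 and 202 to 16.5, 20.8 and 18.6 FPKM, log2 -3.52 (standard error 0.10). *Cyp2f2*, the cytochrome P450 of club cells, fell from 1242, 1329.9 and 1229.7 to 208, 217 and 215 FPKM, and *Scgb1a1*, the most abundant of the list, from 22246, 22044 and 20208 to 8229, 9257 and 8932 FPKM. All 3 IL-33 lungs were below all 3 PBS lungs for each. Of 16 ciliated cell genes, 3 were called lower and 14 were lower with an adjusted p under 0.05, with a median of -0.71. *Sntn*, 1 of the 3, was not called without IL-33 replicate 1 (-0.89), IL-33 replicate 3 (-0.975) or PBS replicate 2 (-0.91), nor with limma. *Ccdc39* was called lower without IL-33 replicate 1 (-1.09), PBS replicate 1 (-1.002) or PBS replicate 2 (-1.01). *Tekt4* was called lower without IL-33 replicate 2 (-1.02) or PBS replicate 3 (-1.09). *Tppp3*, a tubulin-binding protein of cilia, had the largest fall, from 163, 179 and 157 to 54.9, 63.2 and 56.9 FPKM. *Foxj1*, the factor that directs ciliogenesis, was at 29.5, 36.3 and 46.7 FPKM in PBS and 37.1, 38.3 and 34.7 FPKM in IL-33 lungs and did not pass either rule; its log2 fold change of -0.03 turned to 0.15 without PBS replicate 3 and 0.0144 without IL-33 replicate 3.

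Of 13 alveolar type 1 genes, 5 were called lower and 11 were lower with an adjusted p under 0.05, with a median of -0.97. *Emp2*, 1 of the 5, was not called without IL-33 replicate 1 (-0.97), IL-33 replicate 2 (-0.98) or PBS replicate 1 (-0.97), nor with limma. *Lmo7* was called lower without IL-33 replicate 1 (-1.02) or PBS replicate 2 (-1.005), and *Igfbp2* without IL-33 replicate 1 (-1.25). *Akap5*, a kinase anchor, had the largest fall, from 63.3, 53.7 and 58.8 to 19.99, 20.2 and 16.97 FPKM. *Ager*, the receptor for advanced glycation end products, was at 894, 818 and 829.6 FPKM in PBS and 439, 439.8 and 456 FPKM in IL-33 lungs, and *Aqp5*, a water channel, at 75.7, 74.3 and 86.7 FPKM in PBS and 53.1, 44.3 and 43.9 FPKM in IL-33 lungs. Both were short of the minimum fold, and the groups did not overlap. Of 12 surfactant and type 2 cell genes, 1 was called lower and 5 were lower with an adjusted p under 0.05, and the median was -0.26. That gene was *Sftpc*, at 10767, 11639.8 and 10682 FPKM in PBS and 4879, 5053 and 5045 FPKM in IL-33 lungs, whereas *Sftpd*, encoding the collectin surfactant protein D, was at 258, 290.2 and 252 FPKM in PBS and 433, 438 and 455 FPKM in IL-33 lungs, 0.73 higher on the log2 scale.

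Of 15 genes of epithelial injury and of epithelial to mesenchymal transition, 1 was called, and the median was -0.13. The gene called was *Ocln*, encoding the tight junction protein occludin, which fell from 14.5, 15.1 and 15.5 to 7.07, 7.12 and 7.28 FPKM and was just under the minimum fold with limma on log2(FPKM + 1), at -0.97. *Cdh1*, encoding E-cadherin, was at 70.7, 63.6 and 65.8 FPKM in PBS and 62.6, 58.1 and 62.3 FPKM in IL-33 lungs, and *Vim*, encoding the mesenchymal and leukocyte filament vimentin, was 0.85 higher on the log2 scale, short of the minimum. Of 10 airway ion transport genes, 1 was called higher and 2 lower, with a median of -0.58. The 2 falls were of sodium channel subunits, *Scnn1b* from 60.3, 54.9 and 54.6 to 19.6, 19.7 and 20.3 FPKM and *Scnn1g* from 62.1, 52.6 and 61.02 to 27.7, 28.1 and 28.6 FPKM. The sodium and glucose carrier gene *Slc5a1* rose from 0.7400, 1.21 and 0.852 to 11.4, 10.4 and 12.2 FPKM. In this list of 10, 6 genes were called without PBS replicate 2 and 5 without IL-33 replicate 1, *Slc26a9* (-1.09 and -1.03) and *Kcne3* (1.15 and 1.05) among them in each case. *Cftr*, the chloride channel, was at 2.24, 1.71 and 2.29 FPKM in PBS and 1.11, 1.06 and 1.09 FPKM in IL-33 lungs, or -0.94 on the log2 scale, and reached -1.07 and the call without PBS replicate 2.

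**Figure D3:**
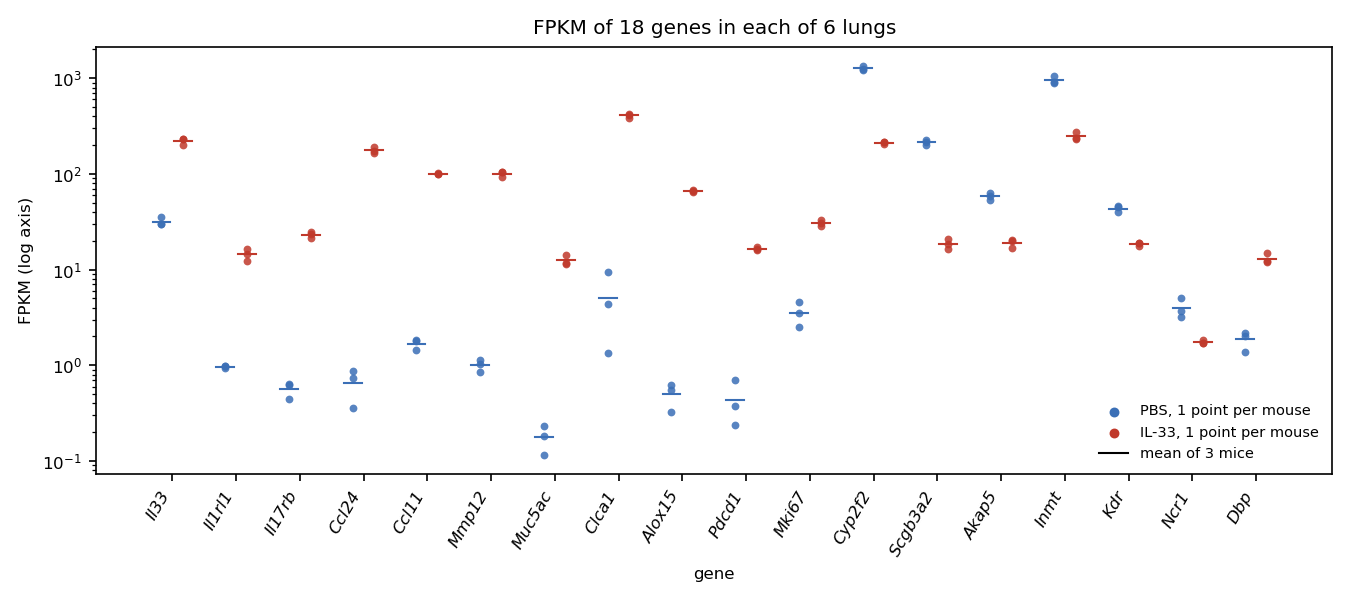
FPKM of 18 genes in each of the 6 lungs on a log axis, 1 point per mouse, with PBS in blue, IL-33 in red and the mean of 3 mice as a bar. The groups do not overlap for any of the 18; genes from *Il33* to *Mki67* and *Dbp* are higher in IL-33 lungs, and those from *Cyp2f2* to *Ncr1* are lower.

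Of 17 endothelial genes, 8 were called lower and 1 higher, with a median of -0.66. *Kdr*, encoding the main receptor for vascular endothelial growth factor, fell from 44.7, 39.6 and 46.1 to 18.9, 17.7 and 18.8 FPKM. *Apln*, encoding the peptide apelin of capillary cells, had the largest fall, from 20.6, 18.7 and 24.9 to 10.2, 8.04 and 8.51 FPKM. *Pecam1*, the endothelial adhesion molecule CD31, was at 152, 142 and 143 FPKM in PBS and 98.1, 92.5 and 100.3 FPKM in IL-33 lungs, lower by less than the minimum fold. For these 3 genes, no IL-33 lung reached the PBS range. The gene called higher was *Ackr1*, a chemokine-binding receptor of venules, at 0.352, 0.752 and 0.0649 FPKM in PBS and 2.45, 1.63 and 2.76 FPKM in IL-33 lungs. It stood at 2.54 on the log2 scale, was at 3.43 without PBS replicate 2 and 2.03 without PBS replicate 3, and lost the call without PBS replicate 1 (2.49) or IL-33 replicate 3 (2.39).

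Of 12 fibroblast genes, 4 were called lower and 1 higher, with a median of -0.74. *Inmt*, a methyltransferase of alveolar fibroblasts, fell from 901, 1062 and 922 to 238, 276 and 233 FPKM, and *Pdgfra*, a growth factor receptor of the same cells, from 51.2, 48.8 and 52.1 to 23.7, 22.9 and 23.5 FPKM. *Col14a1*, a collagen of adventitial fibroblasts, rose from 8.004, 6.27 and 6.998 to 15.8, 16.8 and 15.98 FPKM. Smooth muscle and pericyte genes had 1 of 11 called, higher, and a median of -0.12. It was *Actg2*, at 12.2, 13.7 and 12.1 FPKM in PBS and 26.6, 26.6 and 31.9 FPKM in IL-33 lungs, and *Acta2*, encoding smooth muscle actin, was 0.83 higher on the log2 scale, short of the minimum.

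Of 20 matrix and remodelling genes, 11 were called higher, with a median of 1.17. *Mmp12*, the macrophage elastase, was at 1.03, 1.14 and 0.847 FPKM in PBS lungs and 104, 104 and 92.6 FPKM in IL-33 lungs, log2 6.64 (standard error 0.13). *Timp1*, an inhibitor of such proteases, went from 3.69, 2.199 and 2.74 to 109, 125 and 125 FPKM. *Col1a1*, the main chain of type I collagen, went from 42.8, 24.8 and 33.2 to 145, 166 and 136 FPKM and *Fn1*, encoding fibronectin, from 71.2, 46.3 and 56.5 to 192, 192 and 192 FPKM. The IL-33 lungs were above the PBS lungs for all 4 genes. *Tgfb1*, encoding transforming growth factor β1, rose from 11.2, 13.3 and 16.1 to 34.1, 32.5 and 32.9 FPKM. *Postn*, encoding periostin, was at 67.5, 70.2 and 71.6 FPKM in PBS and 70.6, 70.3 and 68.8 FPKM in IL-33 lungs, with overlapping groups.

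Of 15 TGF-β and BMP genes, 4 were called lower and 1 higher, with a median of -0.53. *Bmp6* fell from 40.1, 45.2 and 49.1 to 15.8, 13.9 and 14.5 FPKM and *Bmpr2*, a receptor of BMP ligands, from 29.04, 30.5 and 29.2 to 13.9, 13.6 and 14.1 FPKM, while *Id2*, a BMP target that innate lymphoid cells also need, rose from 19.6, 21.2 and 17.9 to 46.99, 46.1 and 52.3 FPKM. Of 16 Wnt, Notch and Hedgehog genes, 3 were called lower, with a median of -0.58; limma on log2(FPKM + 1) called 1, and *Wnt5a* was called higher without PBS replicate 3 (1.04). *Axin2*, a target of Wnt signalling, fell from 7.48, 7.21 and 7.69 to 3.45, 3.31 and 3.36 FPKM, and *Wif1*, a secreted Wnt inhibitor, from 1.96, 1.702 and 2.07 to 0.789, 0.826 and 0.787 FPKM. Those were the genes that limma left under the minimum fold, at -0.95 and -0.69. *Gli1*, a target of Hedgehog signalling, was at 1.53, 1.804 and 1.49 FPKM in PBS and 2.24, 2.36 and 2.01 FPKM in IL-33 lungs, higher by less than the minimum fold.

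Of 17 genes of xenobiotic metabolism, 11 were called lower, with a median of -1.24. *Fmo2*, a flavin monooxygenase abundant in lung, fell from 317, 364 and 346 to 98.2, 103 and 83.8 FPKM and *Cyp1a1*, induced through the aryl hydrocarbon receptor, from 22.1, 18.1 and 20.8 to 3.76, 3.397 and 4.28 FPKM. Both were separate between the groups. Of 14 genes of eicosanoid synthesis and response, 8 were called higher and 1 lower, with a median of 1.12; limma on log2(FPKM + 1) called 5 higher, without *Ptges* (0.96), *Hpgds* (0.55) and *Cysltr1* (0.83). *Alox15*, a lipoxygenase of eosinophils and alternatively activated macrophages, was at 0.628, 0.327 and 0.556 FPKM in PBS lungs and 66.00, 64.8 and 67.3 FPKM in IL-33 lungs, log2 7.02 (standard error 0.20). *Hpgd*, which inactivates prostaglandins, fell from 402, 518 and 477 to 144, 138 and 151 FPKM.

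Of 16 glycolysis genes, 5 were called higher and 14 were higher with an adjusted p under 0.05, with a median of 0.65; limma on log2(FPKM + 1) called 3. *Hk3*, the hexokinase of myeloid cells, had the largest rise, from 1.07, 0.926 and 0.8905 to 11.6, 11.6 and 12.6 FPKM, and *Ldha* of lactate production was 0.80 higher on the log2 scale. Of 16 nuclear genes of oxidative phosphorylation, 2 were called higher, 7 had an adjusted p under 0.05 and were higher, and the median was 0.22. Both encode subunits of cytochrome c oxidase. *Cox5a* went from 4.52, 3.76 and 10.9 to 21.04, 19.2 and 22.7 FPKM, and *Cox5b* from 6.67, 12.2 and 16.8 to 23.99, 25.5 and 28.1 FPKM, and PBS replicate 3 was the highest PBS lung for both. *Cox5a*, at 1.71 on the log2 scale, was at 2.33 without that lung, and *Cox5b* was not called without PBS replicate 1, at 0.84. Of 17 cholesterol and fatty acid genes, 1 was called higher and 1 lower, with a median of 0.20; *Dhcr7* was also called higher without IL-33 replicate 1 or PBS replicate 2, at 1.03 in both. *Cyp51*, a sterol demethylase, rose from 6.49, 8.25 and 6.504 to 15.9, 14.01 and 15.4 FPKM, and the desaturase gene *Scd1* fell from 361, 339.7 and 352 to 162, 158 and 163 FPKM. Of 12 arginine and polyamine genes, 3 were called higher, with a median of 0.66. *Nos2*, the inducible nitric oxide synthase, went from 0.832, 0.471 and 0.834 to 3.54, 3.01 and 3.74 FPKM, and *Odc1*, which makes putrescine, was 0.55 higher on the log2 scale.

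Of 18 genes of endoplasmic reticulum stress and secretion, 5 were called higher and 14 were higher with an adjusted p under 0.05, with a median of 0.53; 3 were called without PBS replicate 2, and limma on log2(FPKM + 1) called 2. *Hspa5*, the chaperone BiP, was at 219, 195 and 207 FPKM in PBS and 312, 326 and 299 FPKM in IL-33 lungs, 0.59 higher on the log2 scale. *Ern2*, the stress sensor of mucus-secreting epithelium, had the largest rise, from 0.0554, 0.0745 and 0.05300 to 0.951, 1.15 and 0.948 FPKM, and was short of the minimum fold with limma on log2(FPKM + 1), at 0.93. *Ddit3*, the stress factor CHOP, had a log2 fold change of -0.34, below 0 by less than the minimum.

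Interferon response genes were called higher in 5 of 18 cases, with a median of 0.45. *Rsad2*, 1 of the 5, was not called without IL-33 replicate 3 (0.83), PBS replicate 2 (0.97) or PBS replicate 3 (0.99), nor with limma. *Mx1*, an antiviral GTPase, had the largest rise, from 1.61, 1.31 and 1.33 to 6.97, 6.14 and 8.26 FPKM, and *Irf7*, a factor that amplifies interferon, went from 7.07, 7.21 and 6.88 to 16.8, 14.9 and 19.8 FPKM. Of 18 NF-κB and inflammatory cytokine genes, 8 were called higher, with a median of 1.05. *Il6* had the largest rise, from 0.141, 0.1503 and 0.127 to 2.51, 2.03 and 3.27 FPKM, and *Il1b* went from 2.38, 3.25 and 2.46 to 10.2, 9.99 and 8.31 FPKM. *Tnf* was at 0.112, 0.487 and 0.261 FPKM in PBS and 0.657, 0.738 and 0.648 FPKM in IL-33 lungs; it was not called, and was called without PBS replicate 2 (1.85) and with all 9 samples in the fit (1.24). *Nfkbia*, the inhibitor that NF-κB induces, was at 75.9, 92.5 and 82.4 FPKM in PBS and 77.6, 75.5 and 78.5 FPKM in IL-33 lungs. Of 12 complement genes, 3 were called higher, with a median of 0.43, and *Cfd*, which adipocytes also express, was called lower without PBS replicate 1 (-1.55). They included the receptor gene *C3ar1*, from 0.719, 0.679 and 0.988 to 8.07, 7.22 and 8.31 FPKM, and *Cfb* of the alternative pathway, from 23.7, 15.3 and 18.5 to 45.7, 46.9 and 48.6 FPKM. *C4b* was at 43.2, 19.9 and 30.9 FPKM in PBS and 35.96, 38.95 and 36.7 FPKM in IL-33 lungs and was not called, and its log2 fold change of 0.24 was -0.0011 without PBS replicate 2.

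Immediate early genes, which respond within minutes to handling and signals, were split. Of 18, 4 were called higher and 5 lower, with a median of -0.38. Without IL-33 replicate 2 the lower calls were 2, with *Fosb* at -0.9965, *Dusp1* at -0.91 and *Nr4a1* at -0.93 not called, and limma on log2(FPKM + 1) left out *Fosb* (-0.61) and *Nr4a1* (-0.99). *Fos* fell from 71.2, 52.3 and 60.1 to 22.9, 19.7 and 25.7 FPKM and *Egr1* from 25.6, 21.3 and 24.8 to 9.57, 7.58 and 8.93 FPKM. *Egr2*, which is also part of macrophage activation, rose from 1.601, 2.08 and 1.67 to 10.03, 11.00 and 9.81 FPKM. *Jund* of this list was at 6.56, 13.9 and 163 FPKM in PBS and 172, 40.7 and 50.5 FPKM in IL-33 lungs, highest in PBS replicate 3 and IL-33 replicate 1, and was not called. Without PBS replicate 3 it was called higher, at 3.10, as it was without both of these libraries, at 2.16. Of 10 glucocorticoid response genes, 4 were called lower and 1 higher, with a median of -0.51, and *Mt2* was called higher without IL-33 replicate 1 (1.31). *Zbtb16* fell from 47.96, 33.5 and 40.2 to 14.6, 13.6 and 14.6 FPKM and *Tsc22d3*, encoding GILZ, from 113, 117 and 116 to 56.8, 55.1 and 57.2 FPKM. *Fkbp5*, a classic target of the same receptor, rose from 8.06, 6.78 and 7.698 to 16.2, 14.8 and 16.4 FPKM, a log2 fold change of 1.07 that was 0.998 without PBS replicate 2 and 0.98 with limma on log2(FPKM + 1).

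Clock genes went both ways. Of 16, 4 were called higher and 3 lower, with a median of -0.29. *Npas2*, a positive arm factor, had the largest fall, from 3.604, 2.28 and 2.57 to 0.536, 0.788 and 0.773 FPKM. *Dbp*, an output gene driven by that arm, rose from 1.38, 2.04 and 2.17 to 14.8, 12.2 and 11.9 FPKM, log2 2.79 (standard error 0.18). *Arntl*, the partner of *Npas2*, fell from 5.59, 3.33 and 4.86 to 1.702, 1.34 and 1.48 FPKM. All 3 genes were separate between the groups. *Per2* was at 34.3, 36.9 and 34.9 FPKM in PBS and 19.4, 21.8 and 17.8 FPKM in IL-33 lungs, lower by less than the minimum fold. The hour of harvest is not among the sample labels.

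Genes of tissues beside the lung moved with the groups as well, and are given with the values of each library. All 8 heart muscle genes were called lower, with a median of -1.81, and their FPKM summed to 279, 265 and 271 in PBS lungs and 95.2, 66.9 and 92.2 in IL-33 lungs, with *Actc1* the most abundant. Heart muscle sleeves run along the pulmonary veins of mice. *Myh6*, the atrial and ventricular myosin chain, fell from 64.95, 44.6 and 60.9 to 18.97, 10.7 and 13.9 FPKM. Outside the list, heart muscle genes also tracked the 2 libraries that stand apart. *Myl2* was at 0, 0.0939 and 10.6 FPKM in PBS and 9.83, 0 and 0 FPKM in IL-33 lungs, *Myl3* at 2.56, 1.82 and 7.97 and 4.95, 0.122 and 0.323 FPKM, with overlapping groups and no call for either, and *Mb*, encoding myoglobin, at 33.4, 36.2 and 50.3 and 21.6, 2.604 and 4.104 FPKM. Of 9 red cell and platelet genes tested, 6 were called lower and 1 higher, with a median of -1.40. Their sums were 9305, 8439 and 7861 FPKM in PBS lungs and 2554, 2562 and 3202 FPKM in IL-33 lungs, with *Hbb-bs* the most abundant. Haemoglobin reads were 0.726%, 0.657% and 0.610% of all counts in PBS libraries and 0.196%, 0.199% and 0.249% in IL-33 libraries. No marker of either list was at 0 in all 6 libraries. The 2 lists were lower beside the endothelial, alveolar type 1 and fibroblast lists, and their part in those results was not tested. *Pf4*, encoding a platelet chemokine, was the gene called higher, at 1.09, and was not called without PBS replicate 1 (0.95) or with limma on log2(FPKM + 1) (0.95). *Nppa*, the natriuretic peptide of atrial muscle, was at -1.65 and was not called when IL-33 replicate 1 or any PBS lung was left out, at -1.59 to -1.70 with adjusted p of 0.0581 to 0.081. Limma on log2(FPKM + 1) did not call *Ryr2*, at -0.78.

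The remaining lists of other tissues had few genes to test. Of 3 skeletal muscle and cartilage genes tested, 1 was called lower, *Ckm*, at 5.48, 5.55 and 5.48 FPKM in PBS and 2.08, 0.874 and 0.893 FPKM in IL-33 lungs, the list summed to 7.28, 8.903 and 8.18 FPKM against 4.93, 3.87 and 3.84 FPKM, and 1 of its 8 genes had no read in any library. Of 2 tested on the thyroid, oesophagus and mesothelium list, 1 was called lower, the mesothelial gene *Upk3b*, at 32.3, 14.5 and 22.2 FPKM in PBS and 5.39, 9.28 and 2.69 FPKM in IL-33 lungs; *Msln* was called as well without PBS replicate 2, at -1.1998. That list summed to 63.2, 27.02 and 45.4 FPKM in PBS and 17.5, 27.1 and 9.27 FPKM in IL-33 lungs, with *Msln* the most abundant. The adipocyte list had 0 of 3 genes called by edgeR, of which 2 were lower with an adjusted and an unadjusted p under 0.05, and *Adipoq* was called without PBS replicate 1, at -1.54; DESeq2 and limma called 0. Its sums were 58.5, 71.3 and 63.2 FPKM against 48.03, 47.02 and 49.8 FPKM, with *Pnpla2* the most abundant. Of thymus and lymph node genes, 1 could be tested, *Cd1d1*. EdgeR, DESeq2 and limma called 0 of 1, and 0 had an unadjusted p under 0.05. Their sums were 6.401, 7.03 and 6.33 FPKM against 5.87, 6.01 and 6.63 FPKM.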

How the data were processed

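Lung RNA was sequenced in paired ends of 150 bases, by the paper's methods. The authors deposited 1 table with a read count and an FPKM value per gene and library. The submitters' processing notes name Bowtie 0.12.2, HISAT2 2.0, StringTie 1.3.0 and the build mm10, without roles; the counting tool, its use of strand and its handling of shared reads are not given in the sources used here, so values of close paralogs and of overlapping or antisense genes are uncertain. Of 32643 genes also in GENCODE M21 (GRCm38), 620 have the same coordinates there, so no coordinate of the table is printed; promoter windows carry GRCm38.p6 coordinates from RefSeq. Of the genes in the table, 281 share a symbol.

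Counts of the 6 lungs were tested with edgeR 4.0.16 (glmQLFit and glmQLFTest, TMM factors, R 4.3.3) and no covariate, for 16831 genes that averaged 0.5 FPKM or more over 9 samples. Standard errors are the log2 fold change over the square root of F. Up to 3 counts were treated as the floor; floors cover counting error only. Groups follow the treatment labels. The labels list 3 samples per group, read here as separate mice, and name no pairs across groups. Between libraries of a group the variance was 24.2 to 55.7 times that of sampling. Alternatives were DESeq2 1.42.0, median-of-ratios factors, limma 3.58.1 on log2(FPKM + 1) and log2(FPKM + 0.1), no filter, an average of 5 FPKM or more, all 9 samples, a replicate block, each replicate left out, and, chosen after seeing the data, PBS replicate 3 and IL-33 replicate 1 left out together. Tables and plots used Python 3.11.15, pandas 2.3.3 and matplotlib 3.10.9. The tests were tried on simulated counts before use.

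The 56 gene lists hold 762 genes, none in 2 lists; 714 were tested, 44 were below the filter and 4 had no match. The genes compared and the lists were chosen with earlier results of these data known. Named genes are markers set per list, the called member with the largest rise and fall in each list, and the 10 largest rises and falls with groups that do not overlap, at least 5 FPKM in the higher group and over 3 counts in a mouse of the lower group. Members of the resistin family, 11 genes singled out by the paper, immunoglobulin variable genes and genes with Gm or Rik names were passed over there. Some genes that fit these rules are not reported here. Other names were chosen after their values were seen. The hepatocyte, neuronal and pigment cell lists were put together after their values were seen.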

Additional observations from a re-analysis of the deposited data

How the results depend on the processing

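The count of 2865 called genes lay between 2729 and 2918 with each lung left out in turn, and was 2845 on the 4 libraries rich in liver products (1809 higher and 1036 lower). It was 2858 with DESeq2, 2864 with median-of-ratios factors, 2773 with limma on log2(FPKM + 0.1), 2883 with all 9 samples in the fit and 3343 with no filter. Limma on log2(FPKM + 1) called 1741, with 460 lower in place of 1050, since a pseudocount of 1 shrinks the change of low genes. Among genes that average 5 FPKM or more, which are fewer, 1176 were called, 760 higher and 416 lower, and 5458 had an adjusted p under 0.05. The deviations of same-numbered libraries from their group means correlated at -0.42, 0.28 and -0.28. The largest correlation, 0.65, was between PBS replicate 3 and IL-33 replicate 1, the 2 libraries that stand apart. With 3 libraries per group, these values cannot show whether samples were paired. With the replicate number as a block, 2841 genes were called (8256 with no minimum fold).

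The tally under the alternatives covers markers set per list, each list's largest rise and fall, and the 10 largest rises and falls. In it, 2732 log2 fold changes were called or not called as reported, with the same sign. A further 35 lost a call, 6 became calls and 10 turned sign. Calls of other named genes, among them *Nppa*, *Creld2*, *Jund* and *Cd3g*, also moved and are not counted in it. The turned signs were of 5 genes that were not called. With each lung left out, the log2 fold change ran from -0.0415 to 0.268 for *Cd209a*, -0.152 to 0.0222 for *Cd8a*, -0.173 to 0.1503 for *Foxj1*, -0.173 to 0.0449 for *Ppargc1a* and -0.0011 to 0.557 for *C4b*. On the 4 libraries it was -0.0283 for *Cd209a* and 0.149 for *Foxj1*. The cause was not tested. Of the counts of called list members, 807 stayed within 1.5 times the count reported and 32 did not, and 797 list medians moved by less than 0.25 and 42 by more. With at least 53877663 counts a library, *Il4*, *Ly6g* and *Ighe* had at most 87, 48 and 8 reads in any of the 6 lungs, so depth limits the precision of their values; no library was thinned to test this.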

Other observations

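Some genes had no read in any PBS lung and reads in all 3 IL-33 lungs, and were named after their values were seen. *Tff1*, encoding a trefoil peptide of gastric mucus cells, was counted 209, 272 and 230 times in IL-33 lungs, at least 86.97-fold higher with 3 counts per PBS lung as the floor. *Capn9*, encoding a calpain of the digestive tract, was counted 318, 283 and 409 times, at least 124-fold higher. The homeobox gene *Msx3* was counted 440, 404 and 254 times, at least 134-fold higher, and the receptor gene *Mrgprg* 109, 85 and 136 times, at least 40.4-fold higher.

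The second principal component also had genes that were high in PBS replicate 3 and IL-33 replicate 1. *Cebpb*, a transcription factor of myeloid and acute phase responses, was at 0.497, 0.836 and 34.2 FPKM in PBS replicates 1, 2 and 3 and 44.6, 0.959 and 1.27 FPKM in IL-33 replicates 1, 2 and 3. *Scand1* was at 0.0516, 0.0711 and 19.7 and 25.3, 0.7299 and 3.61 FPKM. In the LM8 group, replicate 3 alone stood with these libraries, with 6.25 FPKM of *Cebpb* against 0.719 and 0.523. For both genes the level in a lung followed its library and not its group, and what the libraries share was not tested.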
